A study of Mus musculus with 12 samples.

Results

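Oligodendrocyte precursor genes are described here by 10 members of the lineage, *Pdgfra*, *Cspg4*, *Olig1*, *Olig2*, *Sox10*, *Gpr17*, *Bmp4*, *Enpp6*, *Tnr* and *Ptprz1*, among 23183 genes listed by symbol. Members were taken by an exact match of the symbol, and each of the 10 was found in all 12 libraries and passed the filter on low values in both regions. The rule itself uses no measured value. RNA was taken from 2 brain regions, cortex and hippocampus, of C57BL/6 males that were 7 weeks old on arrival and acclimatized for 1 week. Control mice (Con) were sham-irradiated and irradiated mice (IR) were given 10 Gy to the brain once, and tissue was taken 3 months later. Each region had 3 Con and 3 IR libraries. The tissue was whole, so fewer cells of a type and less RNA per cell cannot be told apart in any of the values.

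Oligodendrocyte precursor cells remain in the adult brain, divide slowly and replace myelinating cells. They carry the receptor for platelet-derived growth factor, PDGFRA, and the proteoglycan NG2, the product of *Cspg4*. When a precursor leaves this state it loses both, passes through a short committed stage in which *Gpr17*, *Bmp4* and *Enpp6* are expressed, and then makes myelin, while *Olig1*, *Olig2* and *Sox10* are expressed throughout the lineage. The comparison of the precursor genes with the committed-stage genes therefore asks whether the balance of the stages differed between IR and Con.

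Expression is given as FPKM, the fragments of a transcript per kilobase of its length, scaled to the library. Their sum lay between 359773 and 393447 per library, and the steps between low values put the depth at 1 to 1.12 times that of the first Con library of the same region, while the depth in reads is unknown. No pair of libraries was identical. *Cdkn1a*, a cell cycle inhibitor induced by p53 after irradiation, was listed at 5.67 to 6.33 FPKM in Con and 12.7 to 16.8 FPKM in IR of the cortex, and at 2.00 to 2.27 FPKM and 6.06 to 6.25 FPKM in the hippocampus (log2 fold changes of 1.16 and 1.20, adjusted p = 0.000948 and 0.00175). Con and IR did not overlap in either region.

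Promoter sequences are shown for the precursor receptor *Pdgfra*, which had the lowest log2 fold change of the members in both regions, and for *Olig2*, the lineage factor whose cortical groups did not overlap. Each is the stretch of 250 bases before the start of the RefSeq gene on GRCm38.p6, on the plus strand. The *Pdgfra* window is chr5:75152001-75152250, inside the gene as GENCODE draws it from base 75151322 to base 75198206, and its capitals mark CATCTG, a letter sequence of the E-box kind that bHLH factors such as OLIG2 read. The *Olig2* window is chr16:91225300-91225549, and its capitals mark CATTGT, the reverse complement of ACAATG, a core that SOX factors read.
Pdgfra: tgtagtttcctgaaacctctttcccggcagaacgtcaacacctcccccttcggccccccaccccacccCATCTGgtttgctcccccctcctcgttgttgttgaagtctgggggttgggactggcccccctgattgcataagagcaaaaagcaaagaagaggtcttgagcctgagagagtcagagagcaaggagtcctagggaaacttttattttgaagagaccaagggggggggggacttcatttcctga
Olig2: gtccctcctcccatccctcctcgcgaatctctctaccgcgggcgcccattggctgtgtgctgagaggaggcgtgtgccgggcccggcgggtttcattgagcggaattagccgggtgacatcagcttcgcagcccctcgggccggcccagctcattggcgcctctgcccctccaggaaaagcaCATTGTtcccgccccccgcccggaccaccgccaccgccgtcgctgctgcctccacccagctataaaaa

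Among the members, 7 of 10 had an entry in the promoter table. The motif CATCTG began 182 bases before the start of *Pdgfra* and was found on either strand in 14.5% of 27025 promoters, which were searched over the same window. The motif ACAATG began 68 bases before the start of *Olig2*, was also found in the *Enpp6* promoter, and occurred in 11% of all promoters. ACAAAG was found in *Tnr* among the members and in 16.5% of all promoters, whereas CATATG (3.47%) and CAGCTG (12.8%) were found in none of the 7. A match of letters is a description and not a binding site. *Olig2* (chr16:91225550-91228677) and *Olig1* (chr16:91269769-91271939) are neighbours, with 41091 bases between them.

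In the cortex of IR mice, *Gpr17* and *Olig2* were higher than in Con in every library, whereas *Pdgfra* was lower on average and *Cspg4* was at the same level to within 1%. In the hippocampus, *Pdgfra* was lower in every IR library and the other 9 members overlapped between the groups. All these differences were small, with ratios of the group means from 0.868 to 1.24 in the cortex and from 0.906 to 1.14 in the hippocampus. An unadjusted p under 0.05 was reached by 2 of 10 members in the cortex, where 14.1% of 14065 tested genes reached it, and by 0 of 10 in the hippocampus, where 13.9% of 14043 did. The background moved with single libraries: 1983 genes reached it in the cortex and 1215 without IR 1, and 1958 in the hippocampus, 1273 without Con 1, 1296 without Con 2, 1161 without IR 1 and 3613 without Con 3. With a library left out the members numbered 1 to 3 in the cortex and 0 in the hippocampus. After adjustment over all tested genes 0 of 10 members passed in either region, against 0.725% and 0.0285% of all genes. These backgrounds of 102 and 4 genes also moved, to 16 to 78 in the cortex and 0 to 880 in the hippocampus with a library left out. With the fold change of at least 1.5 that the study used, together with an unadjusted p under 0.05, 0 of 10 members passed in either region, against 0.483% and 0.527% of all genes.

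**Figure D1:**
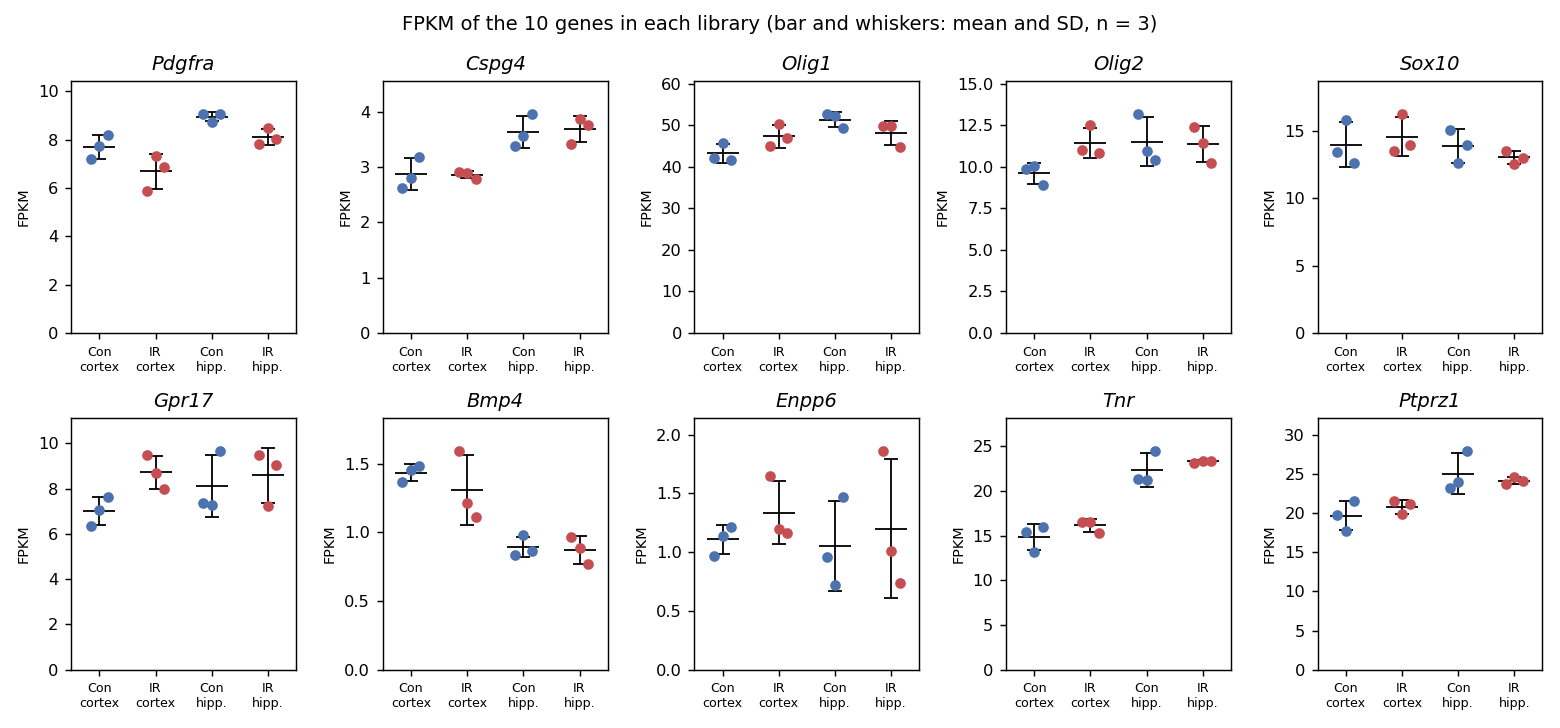
FPKM of each of the 10 genes (vertical axis, from 0) in the 3 libraries of each of the 4 groups, with Con in blue, IR in red, and the mean and SD (n = 3) as bar and whiskers. The red points lie above the blue points of the cortex for *Gpr17* and *Olig2*, and below those of the hippocampus for *Pdgfra*.

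*Pdgfra*, the receptor that marks precursors, was at 7.20, 7.72 and 8.18 FPKM in Con and 5.88, 7.32 and 6.85 FPKM in IR of the cortex. IR 1 and IR 3 of the cortex were below every Con library and IR 2 lay between Con 1 and Con 2. The means were 7.70 ± 0.490 and 6.68 ± 0.733 FPKM (SD, n = 3), and the difference was -0.18 on the log2 scale (95% confidence interval -0.37 to 0.0095, adjusted p = 0.378). In the hippocampus *Pdgfra* was at 9.04, 8.74 and 9.06 FPKM in Con and 7.81, 8.47 and 8.04 FPKM in IR, without overlap. There the log2 fold change was -0.13 (interval -0.28 to 0.023, adjusted p = 0.411). *Pdgfra* was the 1 member of 10 without overlap and lower in IR of the hippocampus, against 9.36% of all tested genes, and 0 of 10 were so in the cortex, against 9.09%. Without cortex Con 1 or IR 2 the cortical change of *Pdgfra* was -0.22 or -0.24 and had an unadjusted p under 0.05, and without IR 1, the lowest library, it was -0.11 and had none.

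*Cspg4*, which encodes the NG2 proteoglycan, was at 2.62, 2.81 and 3.19 FPKM in Con and 2.91, 2.89 and 2.79 FPKM in IR of the cortex. All IR values lay within the range of Con. In the hippocampus it was at 3.39, 3.56 and 3.96 FPKM in Con and 3.42, 3.88 and 3.76 FPKM in IR, again within the range of Con. The log2 fold changes were -0.0015 (95% confidence interval -0.20 to 0.19) and 0.016 (interval -0.18 to 0.22). The ratio of *Cspg4* to *Pdgfra* was higher in each IR library than in any Con library of its region, from 0.364 to 0.390 in Con and from 0.395 to 0.494 in IR of the cortex, and from 0.375 to 0.4375 and 0.4382 to 0.468 in the hippocampus. In the hippocampus the groups lay barely apart, and the difference between the changes of *Cspg4* and *Pdgfra* was not tested. How many other genes lay apart in their ratio to *Pdgfra* was not counted. Over the 12 libraries the log2(FPKM + 1) values of both genes had a Pearson's r of 0.246 with region means removed and 0.421 with group means removed, given as a description.

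Both precursor genes are also expressed outside the lineage, *Pdgfra* in fibroblasts and *Cspg4* in pericytes. The 10 fibroblast markers summed to 40.9 to 55.3 FPKM in Con and 30.5 to 50.1 FPKM in IR of the cortex, and to 31.4 to 50.6 FPKM and 43.9 to 67.2 FPKM in the hippocampus. Of 10 fibroblast markers of the cortex none had an unadjusted p under 0.05, and their log2 fold changes ran from -0.33 (*Fmod*) to -0.0007 (*Slc6a13*, whose mean FPKM was 4.07 in Con and 4.17 in IR), with a median of -0.13. In the hippocampus the log2 fold changes of the 9 tested were above 0, 2 with such a p, *Ogn* (0.75 on the log2 scale, adjusted p = 0.347) and *Slc6a13* (0.67, adjusted p = 0.259). The 10 pericyte and mural markers summed to 78.0 to 88.9 FPKM in Con and 73.4 to 87.7 FPKM in IR of the cortex and to 65.3 to 77.4 FPKM and 72.1 to 77.9 FPKM in the hippocampus, and an unadjusted p under 0.05 was found for 0 of 10 cortical and 1 of 10 hippocampal values (*Notch3*, lower). No marker of either list was at 0 in all libraries of a group, and their part in the result was not tested.

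Of the lineage factors, *Olig2*, a bHLH factor needed to specify the lineage, was at 9.88, 10.1 and 8.91 FPKM in Con and 11.0, 12.5 and 10.9 FPKM in IR of the cortex. The groups did not overlap, and the means were 9.63 ± 0.629 and 11.4 ± 0.906 FPKM (SD, n = 3). The log2 fold change was 0.23 (95% confidence interval 0.061 to 0.40, adjusted p = 0.221). The unadjusted p was under 0.05, but not without Con 3 or IR 2 of the cortex, which left a change of 0.18 or 0.17. In the hippocampus *Olig2* was at 13.2, 10.9 and 10.4 FPKM in Con and 12.4, 11.4 and 10.2 FPKM in IR, and the groups overlapped (log2 fold change -0.014, interval -0.25 to 0.22).

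*Olig1*, its neighbour and paralog, was at 42.2, 45.8 and 41.7 FPKM in Con and 44.9, 50.3 and 46.9 FPKM in IR of the cortex. IR 1 lay below Con 2, so that the groups overlapped, and the log2 fold change was 0.13 (interval -0.0082 to 0.27, adjusted p = 0.383). With single libraries left out, the unadjusted p came under 0.05 without Con 2 and without IR 1, where the change was 0.17 in both cases. In the hippocampus *Olig1* was at 52.7, 52.2 and 49.3 FPKM in Con and 49.7, 49.9 and 44.8 FPKM in IR, with a log2 fold change of -0.094 (interval -0.25 to 0.063, adjusted p = 0.539). The sign thus differed between the regions, and the interaction of irradiation and region was -0.22 (interval -0.42 to -0.024, adjusted p = 0.435). That interaction had a p under 0.05 in 1 of 10 members, where 10.4% of 14459 tested genes had one, and an adjusted p under 0.05 in 0 of 10, against 0.083% of all genes. These backgrounds of 1500 and 12 genes became 2887 and 487 without hippocampus Con 3, and the latter was 0 to 11 without any other single library. It lost the unadjusted call when any of 6 single libraries was left out, namely Con 1, Con 3 and IR 2 of the cortex and Con 1, Con 2 and IR 3 of the hippocampus, with values from -0.21 to -0.17 on the log2 scale.

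*Sox10*, which is needed for myelin gene expression, overlapped between the groups in both regions. It lay between 12.6 and 15.8 FPKM in Con and between 13.5 and 16.2 FPKM in IR of the cortex, and between 12.6 and 15.1 FPKM and 12.5 and 13.5 FPKM in the hippocampus. The log2 fold changes were 0.058 (95% confidence interval -0.15 to 0.27) and -0.082 (interval -0.26 to 0.096). The 3 lineage factors were each higher in IR on average in the cortex and lower in the hippocampus. For *Olig2* the interaction was -0.24 (interval -0.53 to 0.043, adjusted p = 0.538).

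Mature oligodendrocytes express the same factors. In the cortex 19 of 20 mature oligodendrocyte genes were higher in IR and *Opalin* was lower, 7 of the 19 with an unadjusted p under 0.05 (median log2 fold change 0.17, against 0.0016 over all tested genes). *Ermn*, which encodes the cytoskeletal myelin protein ermin, was at 10.2, 11.3 and 9.32 FPKM in Con and 15.2, 14.4 and 12.7 FPKM in IR (0.42, adjusted p = 0.0629). In the hippocampus 14 of 20 were lower and 6 higher, 5 of the 14 and 0 of the 6 with such a p (median -0.14, against -0.01 over all tested genes), and *Opalin*, which encodes a membrane protein of mature oligodendrocytes, was at 19.2, 15.9 and 14.1 FPKM in Con and 6.36, 13.4 and 10.2 FPKM in IR (-0.71, adjusted p = 0.293). The 20 genes summed to 1494 to 1833 FPKM in Con and 1808 to 2176 FPKM in IR of the cortex and to 1561 to 1868 FPKM and 1431 to 1788 FPKM in the hippocampus, and none was at 0. Their part in the levels of *Olig1*, *Olig2* and *Sox10* was not tested.

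Among the committed-stage genes, *Gpr17*, a receptor expressed for a short time as a precursor commits, was at 6.35, 7.07 and 7.61 FPKM in Con and 9.46, 8.68 and 7.99 FPKM in IR of the cortex. The groups did not overlap, and the means were 7.01 ± 0.635 and 8.71 ± 0.739 FPKM (SD, n = 3). The log2 fold change was 0.28 (95% confidence interval 0.090 to 0.47, adjusted p = 0.192), the largest of the 10 members in that region. *Gpr17* and *Olig2* were the 2 members of 10 without overlap and higher in IR of the cortex, against 11.2% of all tested genes. With any single cortex library left out, *Gpr17* kept an unadjusted p under 0.05 and a change of 0.22 to 0.33.

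In the hippocampus *Gpr17* was at 7.35, 7.28 and 9.67 FPKM in Con and 9.48, 7.21 and 9.06 FPKM in IR. Both groups held low and high libraries and overlapped over almost their whole range. The log2 fold change was 0.077 (95% confidence interval -0.22 to 0.38, adjusted p = 0.807), and 0 of 10 members were without overlap and higher in IR there, against 10.5% of all tested genes. The change of *Gpr17* was not shown to differ between the regions, with an interaction of -0.20 (interval -0.55 to 0.15, adjusted p = 0.683). With a single library left out, the hippocampal change ran from 0.00804 to 0.197 and the interaction from -0.27 to -0.081.

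*Bmp4*, a ligand that holds back the maturation of the lineage, was at 1.37, 1.45 and 1.48 FPKM in Con and 1.60, 1.21 and 1.11 FPKM in IR of the cortex. IR 1 was above and the other IR libraries were below every Con library. Its hippocampal values were 0.838, 0.979 and 0.865 FPKM in Con and 0.965, 0.885 and 0.768 FPKM in IR, with overlap. The log2 fold changes were -0.083 (interval -0.31 to 0.15) and -0.017 (interval -0.24 to 0.21).

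*Enpp6*, a choline-specific phosphodiesterase of newly forming oligodendrocytes, was the least precise member. It was at 0.968, 1.14 and 1.22 FPKM in Con and 1.65, 1.20 and 1.16 FPKM in IR of the cortex, and at 0.955, 0.722 and 1.47 FPKM in Con and 1.86, 1.01 and 0.734 FPKM in IR of the hippocampus. In both regions the highest value was that of IR 1, and the groups overlapped. The log2 fold changes were 0.14 (95% confidence interval -0.10 to 0.39) in the cortex and 0.087 (interval -0.39 to 0.56) in the hippocampus.

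*Tnr*, a matrix glycoprotein made by precursors and some neurons, was at 15.5, 13.2 and 16.0 FPKM in Con and 16.6, 16.6 and 15.3 FPKM in IR of the cortex, and at 21.3, 21.2 and 24.5 FPKM and 23.2, 23.3 and 23.4 FPKM in the hippocampus. *Ptprz1*, a receptor phosphatase of precursors and astrocytes, lay between 17.7 and 21.5 FPKM in Con and between 19.8 and 21.5 FPKM in IR of the cortex, and between 23.2 and 27.95 FPKM and 23.7 and 24.6 FPKM in the hippocampus. Both genes overlapped between the groups in both regions. The log2 fold changes of *Tnr* were 0.12 (interval -0.055 to 0.29) and 0.062 (interval -0.10 to 0.23), and those of *Ptprz1* were 0.082 (interval -0.082 to 0.25) and -0.046 (interval -0.23 to 0.14). Of the 10 astrocyte markers, 3 were higher in IR of the cortex with an unadjusted p under 0.05 and 0 lower, and 1 was higher and 3 were lower in the hippocampus, with sums of 866 to 954 FPKM in Con and 910 to 971 FPKM in IR of the cortex and of 968 to 1102 FPKM and 953 to 1019 FPKM in the hippocampus. The astrocyte connexin gene *Gjb6* was higher in both (0.26 and 0.25, adjusted p = 0.0719 and 0.286), and the connexin gene *Gja1* was lower in the hippocampus (-0.20, adjusted p = 0.299). Of the 10 neuronal markers 0 had such a p in either region, and they summed to 3521 to 4030 FPKM in Con and 3660 to 4000 FPKM in IR of the cortex and to 3675 to 3980 FPKM and 3713 to 3882 FPKM in the hippocampus. No gene of either list was at 0 in all libraries of a group, and the part of these cells in the values of *Tnr* and *Ptprz1* was not tested.

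**Figure D2:**
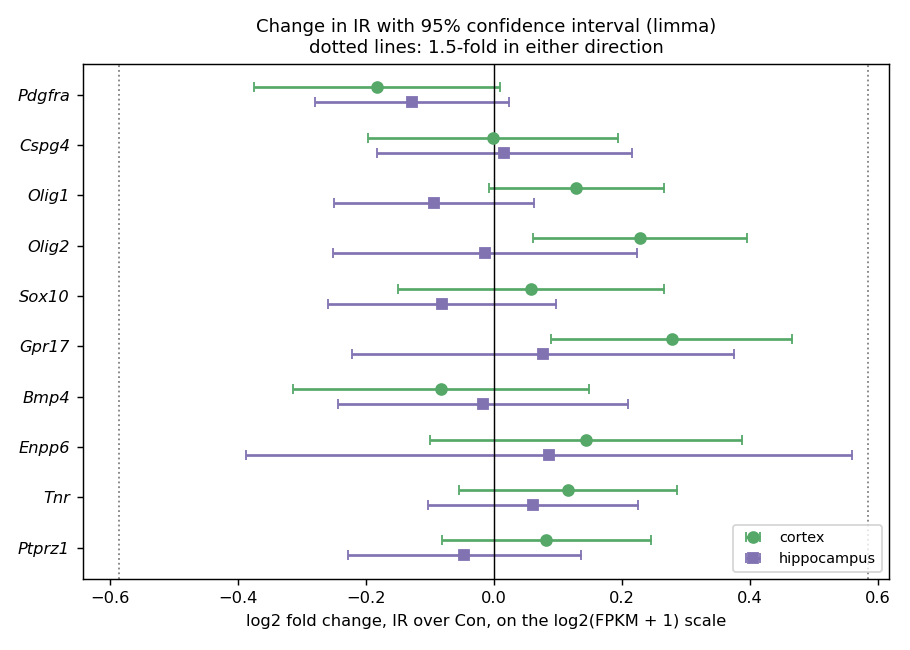
Log2 fold change of IR over Con with its 95% confidence interval from limma (horizontal axis, log2(FPKM + 1) scale) for the 10 genes, with the cortex as green circles, the hippocampus as purple squares and 1.5-fold in either direction as dotted lines. The intervals of *Gpr17* and *Olig2* in the cortex lie above 0, and all 20 intervals lie inside the dotted lines.

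The width of the intervals sets what these libraries could show. On the log2(FPKM + 1) scale the 95% confidence intervals of 10 of 10 members in each region lay within 1.5-fold in either direction. The pseudocount of 1 compresses the change of low genes, and with a pseudocount of 0.1 this held for 9 of 10 members in each region, the exception being *Enpp6*.

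For the comparison of stages, the mean log2 fold change of *Gpr17*, *Bmp4* and *Enpp6* minus that of *Pdgfra* and *Cspg4* was 0.205 in cortical and 0.105 in hippocampal tissue. With *Pdgfra* alone as the precursor gene it was 0.296 and 0.177. Per library, the mean log2(FPKM + 1) of the committed-stage genes minus that of the precursor genes was -0.75, -0.72 and -0.78 in Con and -0.32, -0.66 and -0.66 in IR of the cortex. All IR libraries were above all Con libraries there, and IR 1 stood far above the other 2. In the hippocampus the differences were -1.10, -1.13 and -0.95 in Con and -0.68, -1.11 and -1.07 in IR, with overlap. Without IR 1 of the cortex the difference in log2 fold change was 0.092, and without IR 1 of the hippocampus it was -0.031, so that its sign turned. No test was made of these scores, since the genes were chosen with results known.

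The ratio of *Gpr17* to *Pdgfra* was 0.881, 0.917 and 0.931 in Con and 1.61, 1.19 and 1.17 in IR of the cortex. *Pdgfra* was thus the higher of the pair in every Con library and *Gpr17* in every IR library of that region. In the hippocampus the ratio was 0.813, 0.834 and 1.07 in Con and 1.21, 0.852 and 1.13 in IR, with overlap. Against *Cspg4*, the ratio of *Gpr17* was 2.39 to 2.52 in Con and 2.86 to 3.26 in IR of the cortex, without overlap, and 2.05 to 2.44 and 1.86 to 2.77 in the hippocampus. The ratios of *Bmp4* to *Pdgfra* overlapped between the groups in both regions, whereas those of *Enpp6* to *Pdgfra*, from 0.134 to 0.149 in Con and from 0.164 to 0.280 in IR, did not overlap in the cortex. In the hippocampus the latter ran from 0.0827 to 0.162 in Con and from 0.0913 to 0.239 in IR. Among the committed-stage genes *Gpr17* and *Enpp6* were thus higher relative to *Pdgfra* in every IR library of the cortex, and *Bmp4* was not. These ratios share *Pdgfra*, whose mean was lower in IR of the cortex, and *Enpp6* itself overlapped between the groups there. The ratios are a description with no test, and how many other genes lay apart in their ratio to *Pdgfra* was not counted.

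**Figure D3:**
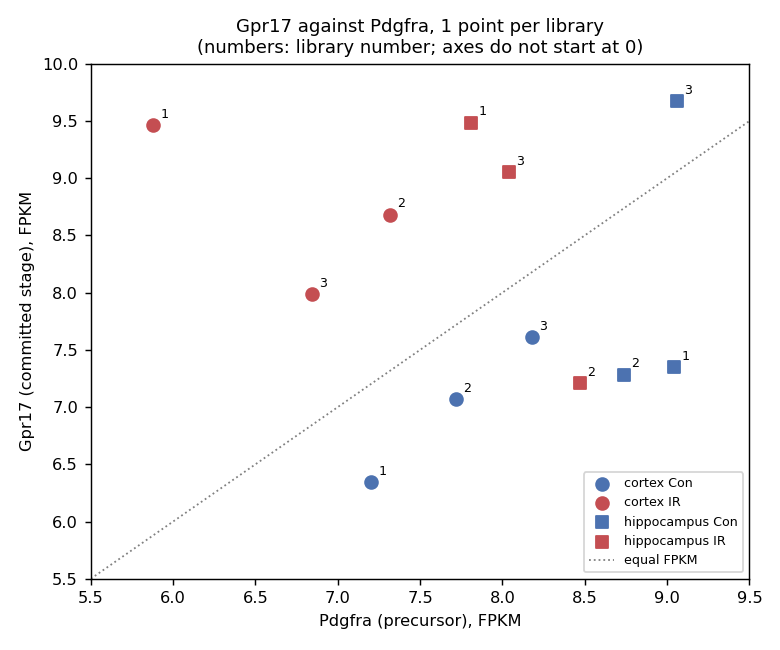
FPKM of *Gpr17* (vertical axis) against FPKM of *Pdgfra* (horizontal axis) in the 12 libraries, with Con in blue, IR in red, cortex as circles, hippocampus as squares and the library number beside each point. The 3 cortex IR points lie above the dotted line of equal FPKM and the 3 cortex Con points below it, while in the hippocampus 2 of 3 IR points and 1 of 3 Con points lie above it.

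With the change averaged over both regions in the fit of all 12 libraries, a comparison added after the values were seen, *Pdgfra* was lower in IR (log2 fold change -0.16, 95% confidence interval -0.27 to -0.039, adjusted p = 0.15) and *Gpr17* was higher (0.18, interval 0.0007 to 0.35, adjusted p = 0.265). They were the 2 of 10 members with an unadjusted p under 0.05, against 18.7% of all tested genes, and 0 of 10 had an adjusted p under 0.05, against 1.98%. That last background of 287 genes ran from 27 without cortex IR 1 to 1356 without hippocampus Con 3. The labels do not say whether cortical and hippocampal libraries of the same number came from the same mouse, and the fit counts all 12 as separate. With the cortical and hippocampal libraries of the same treatment and number joined as a block, *Pdgfra* kept an unadjusted p under 0.05 and *Gpr17* did not. With any 1 of the 12 libraries left out, *Pdgfra* kept such a p and a change of -0.19 to -0.12. *Gpr17* lost it without any of 8 libraries, with a lowest change of 0.14 without hippocampus IR 1. The others of the 8 were Con 1, Con 2, IR 1 and IR 2 of the cortex and Con 1, Con 2 and IR 3 of the hippocampus.

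The regions were compared in Con mice, where an unadjusted p under 0.05 was reached by 7 of 10 members (51.1% of all tested genes) and an adjusted p under 0.05 by 5 of 10 (44.2%), shares near the background. *Tnr* was 1.5 times the cortical level in the hippocampus (0.56 on the log2 scale, adjusted p = 5.245e-05) and *Ptprz1* 1.27 times (0.33, adjusted p = 0.00395). *Olig1* (0.24, adjusted p = 0.00794) and *Cspg4* (0.26, adjusted p = 0.0198) were also higher in the hippocampus, and *Bmp4* was lower at 0.623 times its cortical level (-0.36, adjusted p = 0.00688). *Pdgfra* (0.19, adjusted p = 0.0538) and *Olig2* (0.23, adjusted p = 0.0616) did not pass the adjusted threshold, and *Gpr17*, *Enpp6* and *Sox10* had adjusted p-values of 0.237 or more. Without cortex Con 1 or hippocampus Con 3, *Cspg4* did not pass either (adjusted p = 0.0828 and 0.0696). Conversely, the adjusted p of *Pdgfra* was 0.045 without cortex Con 3, 0.032 without cortex IR 1 and 0.0473 without cortex IR 2, and that of *Olig2* was 0.0267 without hippocampus Con 3. Column headings in the files carry another ending for each region, so that region and a possible processing run cannot be told apart.

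Ordered by group mean, *Bmp4* was the member with both cortex groups above both hippocampus groups without overlap, while *Tnr*, *Ptprz1* and *Cspg4* had both hippocampus groups above both cortex groups without overlap. Over all tested genes 44.2% differed between the regions of Con at an adjusted p under 0.05. How many of all genes lay apart in such an order was not counted. For *Pdgfra* the order from low to high was cortex IR, cortex Con, hippocampus IR and hippocampus Con, and the neighbours overlapped except for the hippocampus groups. For *Gpr17* the order was cortex Con, hippocampus Con, hippocampus IR and cortex IR, and every pair of neighbours overlapped. As levels per transcript length, *Olig1* was the highest member in both regions (mean of 6 libraries 45.3 and 49.8 FPKM), above 92.7% and 93.3% of all listed genes. *Bmp4* in the hippocampus was the lowest member (0.883 FPKM), and *Enpp6* was next at 1.13 FPKM.

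The other precursor genes, 18 in a list that holds none of the members, had log2 fold changes of both signs. In the cortex 7 of 17 tested were above 0 and 10 below it, with *Cspg5*, a neural proteoglycan, the 1 with an unadjusted p under 0.05, at 90.1, 100.2 and 87.0 FPKM in Con and 80.0, 83.3 and 84.3 FPKM in IR (log2 fold change -0.16, adjusted p = 0.284). In the hippocampus 6 of 18 were above 0 and 12 below it, 2 of the latter with such a p, with a median of -0.12 over the list. These were *Vcan*, the proteoglycan versican (-0.21, adjusted p = 0.355), and *C1ql1*, a secreted protein of precursors (-0.16, adjusted p = 0.352), and the groups of both did not overlap. No gene of the list was higher with an unadjusted p under 0.05 in either region.

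Of 14 other genes of newly formed oligodendrocytes, 7 were higher and 7 lower in IR of the cortex, and 6 were higher and 8 lower in the hippocampus. At an unadjusted p under 0.05, 1 was higher and 2 were lower in each region. *Myrf*, the factor that switches on myelin genes, was higher in cortical tissue (0.25 on the log2 scale, adjusted p = 0.332). *Mycl*, a MYC family factor, was lower in the cortex, at 3.36, 3.71 and 4.001 FPKM in Con and 2.38, 2.37 and 2.47 FPKM in IR (-0.46, adjusted p = 0.0477), and was higher in the hippocampus, at 12.7, 12.04 and 11.3 FPKM in Con and 15.2, 14.4 and 14.5 FPKM in IR (0.27, adjusted p = 0.247). The adjusted p of *Mycl* in the cortex lay between 0.0659 and 0.191 with each cortex library left out in turn. *Bcas1*, a gene of newly formed myelinating cells, was at 44.5, 36.5 and 30.5 FPKM in Con and 25.4, 29.9 and 27.4 FPKM in IR of the hippocampus (-0.40, adjusted p = 0.288).

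**Figure D4:**
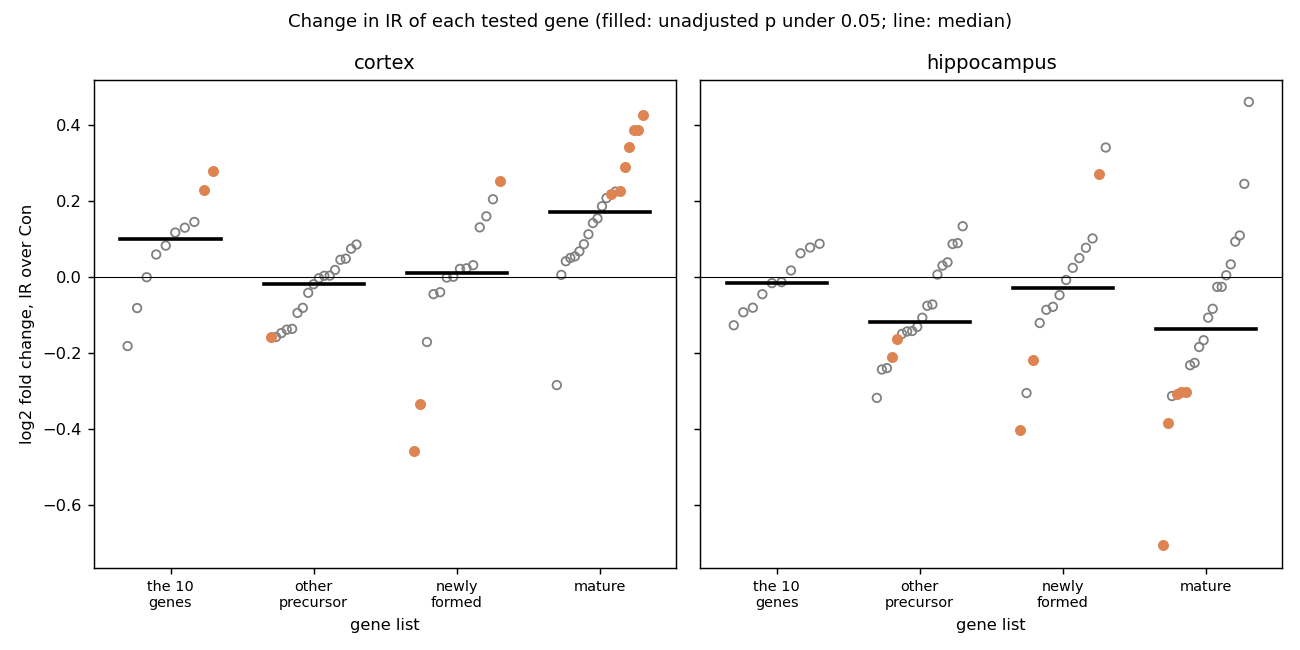
Log2 fold change of IR over Con (vertical axis) of each tested gene in the cortex and the hippocampus, for the 10 genes and for the lists of other precursor, newly formed and mature oligodendrocyte genes, with filled points for an unadjusted p under 0.05 and a line at the median. The medians of the mature genes are 0.17 (cortex) and -0.14 (hippocampus), and those of the other precursor genes are -0.02 and -0.12.

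Genes that act on the members were read from lists of ligands, receptors and partners. *Pdgfa*, the ligand of the precursor receptor, was at 26.5, 29.6 and 25.97 FPKM in Con and 25.6, 26.04 and 29.4 FPKM in IR of the cortex, and at 25.2, 22.9 and 21.98 FPKM and 21.8, 23.3 and 20.9 FPKM in the hippocampus, with overlap in both. *Pdgfb* was at 9.31, 9.495 and 9.76 FPKM in Con and 11.4, 11.5 and 10.2 FPKM in IR of the cortex without overlap (log2 fold change 0.19, adjusted p = 0.233), the 1 of 5 genes of this list with an unadjusted p under 0.05 there, whereas 0 of 5 had one in the hippocampus. *Ptn*, which encodes pleiotrophin, a ligand of PTPRZ1, was lower without overlap in both regions, from 97.8, 101.5 and 97.9 to 93.4, 91.0 and 88.4 FPKM in the cortex (-0.12, adjusted p = 0.297) and from 90.7, 74.0 and 71.7 to 54.3, 62.4 and 63.9 FPKM in the hippocampus (-0.38, adjusted p = 0.259). Its receptor gene *Ptprz1* overlapped between the groups in both regions, as described above. *Cntn1*, which encodes the PTPRZ1 partner contactin-1, was lower in the hippocampus (adjusted p = 0.322), and the other 3 of the 5 genes had an unadjusted p above 0.05 in both regions.

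Of the BMP receptors, SMAD proteins, antagonists and targets around *Bmp4*, 2 of 18 were higher and 1 lower in cortical tissue at an unadjusted p under 0.05, and 1 of 19 was higher and 3 lower in the hippocampus. *Chrd*, which encodes the BMP antagonist chordin, was higher in both regions, at 14.6, 15.5 and 14.1 FPKM in Con and 16.2, 15.6 and 17.7 FPKM in IR of the cortex (adjusted p = 0.34) and at 22.1, 21.0 and 22.3 FPKM and 23.5, 25.0 and 24.03 FPKM in the hippocampus (adjusted p = 0.347). *Smad7*, an inhibitory SMAD, was higher in the cortex (0.18, adjusted p = 0.335) and lower in the hippocampus (-0.38, adjusted p = 0.23), without overlap in both. *Bmp7*, another ligand, was lower in the cortex (-0.33, adjusted p = 0.212), and *Grem1*, the antagonist gremlin, was lower in the hippocampus (-0.44, adjusted p = 0.326). Among Notch and Wnt regulators of the lineage, *Notch1* was higher (adjusted p = 0.332) and *Apcdd1*, a Wnt inhibitor, was lower (adjusted p = 0.327) of 9 tested in the cortex, and 0 of 10 had an unadjusted p under 0.05 in the hippocampus. Of the perineuronal matrix partners of *Tnr*, 0 of 7 cortical and 1 of 7 hippocampal values had such a p, *Hapln1* (lower, adjusted p = 0.351), a link protein. Of 12 markers of dividing cells 4 cortical and 3 hippocampal ones could be tested, the rest lying under the filter, and 0 had an unadjusted p under 0.05. The 12 markers summed to 5.43 to 6.02 FPKM in Con and 5.12 to 6.10 FPKM in IR of the cortex, and to 5.34 to 6.36 FPKM and 4.16 to 5.01 FPKM in the hippocampus, where the groups did not overlap. *Top2a*, *Pbk*, *Ccna2* and *Mcm5* were each lower in every hippocampal IR library than in any Con library (as were 9.36% of all tested genes), the first 2 under the filter in both groups, *Ccna2* with an adjusted p of 0.36 and *Mcm5* with one of 0.461.

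Lists of other cells were read beside the members. Of 10 microglia markers, 5 were lower with an unadjusted p under 0.05 in cortical tissue, 7 were so in hippocampal tissue, and 0 were higher, with sums of 173 to 186 FPKM in Con and 137 to 176 FPKM in IR of the cortex and 165 to 200 FPKM and 132 to 148 FPKM in the hippocampus. *Csf1r*, the receptor that microglia need to survive, was the lowest of them in both regions (-0.80, adjusted p = 0.276, and -0.84, adjusted p = 0.0126), and *Trem2*, a microglial lipid receptor, was the 1 of 10 with an adjusted p under 0.05 in cortical tissue (-0.38, adjusted p = 0.0396). Endothelial markers were higher with such a p in 5 of 10 cases in cortical and 2 of 10 in hippocampal tissue and lower in 0, with sums of 89.7 to 106 FPKM in Con and 109 to 126 FPKM in IR of the cortex and 78.6 to 88.5 FPKM and 96.3 to 98.6 FPKM in the hippocampus. The tight junction gene *Cldn5* was the highest of them in both regions (0.46 and 0.45, adjusted p = 0.121 and 0.218). Of 5 tested neuroblast markers, *Dcx* was lower in the cortex (adjusted p = 0.202) and 0 had an unadjusted p under 0.05 in the hippocampus, with sums over the list of 28.9 to 32.3 FPKM in Con and 26.8 to 30.0 FPKM in IR of the cortex and 46.4 to 68.0 FPKM and 55.2 to 60.4 FPKM in the hippocampus. There *Calb2* and *Neurod1* gave most of the sum, and the untested *Eomes* (0.0607 to 0.214 FPKM in Con and 0.0147 to 0.0453 FPKM in IR) and *Draxin* (0.166 to 0.26 FPKM and 0.0942 to 0.163 FPKM), both under the filter, were lower in every IR library than in any Con library. No gene of these lists was at 0 in all libraries of a group, and the part of these cells in the members' values was not tested.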

How the data were processed

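RNA-seq values of 12 libraries, 3 Con and 3 IR from each of 2 regions, were used. The deposited values are FPKM that the authors estimated with Cufflinks from TopHat alignments and scaled by a geometric normalization in edgeR; the submitters' processing notes name the build mm10. The labels name Trizol and total RNA and the methods an RNeasy kit and poly(A) selection, which was not settled. No counts were used, so the depth in reads is unknown and precision is given by the replicates alone.

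Groups and numbers were taken from the labels. The fit took genes at 0.5 FPKM or more in 3 or more libraries of a region, as log2(FPKM + 1) with limma 3.58.1 in R 4.3.3 (trend, robust prior), with Benjamini-Hochberg adjustment over all tested genes. Every p in the text is two-sided from this fit. The interaction, the regions in Con and the average over regions came from a fit of all 12 libraries. Fold changes are on the log2(FPKM + 1) scale and understate those of low genes; ratios of means are on the FPKM scale. An exact permutation test of 3 against 3 libraries cannot give p below 0.1 and was not used. The labels do not say whether libraries came from separate animals or pools, so p-values measure the spread between these libraries. Steps were tested on simulated data.

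The members and lists were chosen with earlier results of these data known. The named genes are the members, the partners in the PDGF, PTPRZ1 and perineuronal lists, *Cdkn1a*, and up to 4 genes of each other list, drawn from those with the highest or the lowest log2 fold change among genes with an unadjusted p under 0.05 in a region; not all such genes are named, and *Trem2*, *Fmod*, *Top2a*, *Pbk*, *Ccna2*, *Mcm5*, *Calb2*, *Neurod1*, *Eomes* and *Draxin* were chosen after their values were seen. Promoters came from RefSeq on GRCm38.p6 and gene positions from GENCODE M21. Alternatives were a pseudocount of 0.1, no filter, at least 1 FPKM in every library, quantile normalization, median-of-ratios scaling, no trend or robust prior, all 12 libraries in a single fit, a block, *Pdgfra* alone as the precursor gene, the ratio of group means and leaving out each library. In fits of a single region the block was the library number as a factor. For comparisons over all 12 libraries it joined the cortical and hippocampal libraries of the same treatment and number as correlated. Plots were made in Python 3.11.15 (matplotlib 3.10.9).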

Additional observations from a re-analysis of the deposited data

Results flagged for a closer look

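The response to irradiation differed in sign between the regions for 2 genes of the lists around the members. *Mycl*, of the newly formed oligodendrocyte list, was lower without overlap in IR of the cortex and higher without overlap in IR of the hippocampus, with an interaction of irradiation and region of 0.729 on the log2 scale (adjusted p = 0.0292 from limma). Its mean in Con was 3.69 FPKM in the cortex and 12.04 FPKM in the hippocampus, and the part of other cells in these levels was not tested. With each of the 12 libraries left out in turn, the interaction of *Mycl* lay between 0.682 and 0.781 and its adjusted p between 0.00885 and 0.0937, under 0.05 in 4 of 12 cases. *Smad7*, an inhibitor of BMP and TGF-beta signalling, was at 5.91, 6.14 and 5.82 FPKM in Con and 6.21, 7.15 and 7.27 FPKM in IR of the cortex, and at 7.74, 7.74 and 7.37 FPKM in Con and 5.03, 5.62 and 6.33 FPKM in IR of the hippocampus. Its interaction was -0.553 (adjusted p = 0.133 from limma), and leaving out single libraries put it between -0.624 and -0.484, with an adjusted p between 0.0297 and 0.329.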

How the results depend on the processing

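No member passed the adjusted threshold for IR against Con under any alternative. Fitting the library number as a block gave 4 cortical calls at an unadjusted p under 0.05 (*Pdgfra* and *Olig1* in addition) in place of 2, and quantile normalization gave 0 in place of 1 for the interaction. Deviations of equally numbered Con and IR libraries had correlations of -0.393 to 0.108 within a region, and cortical and hippocampal libraries of the same group and number had correlations of -0.0361 to 0.173 in Con and -0.0826 to 0.116 in IR. The labels do not tie the numbers to mice, so they were not taken to pair the samples. In the fits of all 12 libraries, the block of equally numbered libraries of a treatment took the averaged *Gpr17* out of the calls (1 member left). It added *Pdgfra* to the adjusted calls between regions (6 members). Quantile normalization turned the sign of *Cspg4* in the cortex (0.00442). Cortical *Pdgfra* also came under an unadjusted p of 0.05 with quantile normalization (-0.188) and in a single fit of all 12 libraries (-0.183), and the averaged change of *Gpr17* lost such a p under 5 of 7 alternatives. The causes were not tested.

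With single libraries left out, members with an unadjusted p under 0.05 numbered 1 to 3 for the cortex and 0 to 2 for the interaction. Log2 fold changes that turned sign ranged in the cortex from -0.0483 to 0.0559 for *Cspg4* and from -0.0175 to 0.146 for *Sox10*. In the hippocampus they ranged from -0.0221 to 0.0663 for *Cspg4*, -0.0786 to 0.0798 for *Olig2*, -0.0526 to 0.0239 for *Bmp4*, -0.12 to 0.242 for *Enpp6* and -0.0975 to 0.0332 for *Ptprz1*. The interaction of *Pdgfra* ranged from -0.0227 to 0.114, and the differences between regions from -0.0712 to 0.0809 for *Sox10* and from -0.198 to 0.0622 for *Enpp6*. Some changes shrank without a turn of sign. Without cortex Con 2 the cortical changes of *Tnr* and *Ptprz1* were 0.0372 and 0.0134, and without cortex IR 1 that of *Enpp6* was 0.051.

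The background moved more. Genes with an adjusted p under 0.05 numbered 102 in the cortex and 24 without a filter, 22 without trend and robust prior and 16 to 78 with a library left out, 16 without IR 1, 29 without IR 2, 38 without IR 3 and 45 without Con 3. In the hippocampus they numbered 4, and 2 at 1 FPKM or more in every library, 73 in the single fit, 1 with the block and 0 to 880 with a library left out, 2 without Con 1, 880 without Con 3 and 0 whichever IR library was left out. For the interaction they numbered 12, and 7 without a filter, 19 at 1 FPKM or more, 0 without trend and robust prior (where *Mycl* had an adjusted p of 0.0502) and 19 with the block. With a library left out they numbered 0 to 487 for the interaction, 487 without hippocampus Con 3, and moved by over 1.5 times whichever library was left out, except hippocampus IR 3. For the average over regions they numbered 287, and 169 without a filter and 27 to 1356 with a library left out, 27 without cortex IR 1 and 1356 without hippocampus Con 3, and moved by over 1.5 times whichever of the 12 was left out.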

Other observations

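Across the 12 libraries, with the mean of each region subtracted, the genes among 13649 whose log2(FPKM + 1) was most like that of *Pdgfra* were *D3Ertd751e* (Pearson's r = 0.933), *Tatdn1* (0.929), *Bdh1* (0.898), *Carf* (0.888) and *D430036J16Rik* (0.881). For *Gpr17* they were *Ctrl* (0.9), *Lasp1* (0.881), *Pik3ca* (0.88), *Stt3b* (0.878) and *Slc36a1* (0.877). None of these 10 is a member or a gene of the lists. Among pairs of members, *Olig1* and *Olig2* had an r of 0.80, *Tnr* and *Ptprz1* of 0.768, *Gpr17* and *Enpp6* of 0.67 and *Pdgfra* and *Gpr17* of -0.504. With the mean of each group of 3 subtracted instead, so that the difference between Con and IR is taken out, these were 0.771, 0.835, 0.663 and -0.14. The points share the libraries and hold both Con and IR, so these values are a description with no test.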
